A study of Mus musculus with 12 samples.

Results

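The genes for translation initiation and elongation factors were followed in RNA and in ribosome footprints of the mouse testis. They were taken by name from the gene rows of the count table: every symbol that begins with Eif1 to Eif6, Eef1 or Eef2, without Eif2s1, Eif4ebp1 and the 4 kinases Eif2ak1 to Eif2ak4. This gave 57 genes of 20620, of which 55 had at least 1 count. The 12 libraries came from whole testes of C57BL/6 mice at postnatal day 16, either *Mael*+/- (heterozygous, the controls) or *Mael*-/- (without Maelstrom, a protein of the germ cell pathway that makes piRNAs against transposons). Each genotype had 3 testis extracts, and each extract gave 1 RNA library and 1 library of the RNA fragments that ribosomes protect from nuclease. The labels do not say whether the 3 replicates were separate animals, so p-values measure the spread between these extracts. Ribosome profiling asked whether translation was altered in *Mael*-/- testes, and here that question is put to the messages of the factors themselves.

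Initiation begins when eIF2 brings the initiator tRNA to the small ribosomal subunit, together with eIF1, eIF1A, eIF3 and eIF5. The cap-binding protein eIF4E, the scaffold eIF4G and the helicase eIF4A load this complex on the mRNA, and it scans to the start codon, where eIF5B joins the large subunit. In elongation eEF1A delivers aminoacyl-tRNA, the eEF1B subunits recharge it with GTP, eEF2 moves the ribosome along, and eIF5A relieves stalls. Several of these proteins are made from a pair of related genes, and some of the gene pairs divide between germ cells and other cells or between the X and Y chromosomes.

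Many factor genes have close relatives or processed copies elsewhere in the genome, and the sequences below are shown because reads from such stretches have more than 1 possible origin. Each line gives the 30 coding bases of a gene, 5′ to 3′ on the coding strand, at the same place in both genes of a pair, and capitals mark the bases that differ between them. The reference was GRCm38, the assembly also called mm10. The stretch lies in the coding exons of each gene.
Eif4a1, chr11:69668519-69668548, minus strand: gtAgtTttgTtGtctgcTacaatgccTTct
Eif4a2, chr16:23110580-23110609, plus strand: gtTgtGttgCtTtctgcCacaatgccAAct
Eif1, chr11:100320948-100320977, plus strand: aaatttgcctgcaatggTactgtAattgaG
Eif1b, chr9:120494535-120494564, plus strand: aaatttgcctgcaatggAactgtGattgaA
Eif2s3x, chrX:94202845-94202874, minus strand: tatatagtGaagaaaatAccagtGccCcCa
Eif2s3y, chrY:1016131-1016160, plus strand: tatatagtAaagaaaatTccagtAccTcTa
Eef1a1, chr9:78479670-78479699, minus strand: gaTTGTatcctAccAccAacTcgTccAact
Eef1a2, chr2:181150965-181150994, minus strand: gaCACAatcctGccCccCacCcgCccCact
Over their whole coding sequences the pairs were 78.6% (Eif4a1 and Eif4a2), 81.3% (Eif1 and Eif1b), 86.3% (Eif2s3x and Eif2s3y) and 80.7% (Eef1a1 and Eef1a2) identical. The windows themselves occurred at 3 places in the genome for Eif4a1, 13 for Eif1, 2 for Eif2s3x and 6 for Eef1a1. The windows of Eif1b, Eif2s3y and Eef1a2 occurred at 1 place each, and that of Eif4a2 at 2. So each window told a gene from its partner, but 5 of the 8 genes shared it with a locus other than the partner.

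Gene counts per library ran from 13697267 to 27462358 for RNA and from 7609932 to 13233565 for footprints, and the factor genes took 1.46 to 1.67% of the RNA counts and 1.05 to 1.09% of the footprint counts. *Mael* had 3800 to 5045 RNA counts in *Mael*+/- libraries and 0 to 2 in *Mael*-/- libraries, and 660 to 1294 against 0 to 7 footprint counts, as the labels have it. Germ cell markers (Ddx4, Dazl) and Sertoli cell markers were present in every library. Of 5 spermatid markers, Prm1, Prm2 and Tnp2 had no RNA count, and 1 had enough RNA counts to be tested. With Tnp1 and Acrv1, the 5 summed to 0.520 to 0.680 CPM (counts scaled to a common library total) in *Mael*+/- RNA. In *Mael*-/- RNA the sum was 0.364 to 0.991. The first *Mael*+/- extract stood apart in markers of meiotic cells. The summed level of 6 leptotene to zygotene markers was 1430 CPM in its RNA and 2129 in its footprints, against 458 to 737 and 735 to 849 in the other extracts. The summed level of 12 pachytene markers was 934 CPM in its RNA and 1103 in its footprints, against 324 to 350 and 319 to 384 in the other *Mael*+/- extracts and 261 to 300 and 272 to 315 in *Mael*-/-. All 10 of these markers tested in RNA were lower in *Mael*-/-, and Tcte3 was at 0. Results are therefore also given without this extract where it moved them. In whole testes, fewer cells of a type and less RNA per cell cannot be told apart.

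Per whole length, the elongation factors led both assays. Eef1a1, the tRNA-delivering factor, had the highest RNA level of all factor genes in *Mael*+/- testes, 2037 ± 224 CPM per kb of transcript (SD, n = 3). Eef2, the translocase, followed with 872 ± 94.3, and then Eif4a1, the helicase, with 341 ± 32.4 and Eif5a with 340 ± 31.8, a pair of values that did not differ beyond their spread. In footprints, on the same scale of whole lengths, Eef2 led with 807 ± 32 CPM per kb of coding sequence, followed by Eif5a with 635 ± 68.2 and Eef1a1 with 482 ± 3.47, while Eif4a1 fell to rank 51 with 7.50 ± 0.924. Per kb of unique positions, the length leaves out stretches found elsewhere in the genome, while all counts of a gene are kept. On this scale Eef1a1 led in footprints as well as in RNA, with 4435 ± 31.9 and 4524 ± 497 CPM. Eif5a (1186 ± 127) and Eef2 (1149 ± 45.6) followed in footprints, and in RNA Eif4a1 (1368 ± 130) stood above Eef2 (924 ± 100). If reads from shared stretches were counted, this scale overstates genes with few unique positions, such as Eef1a1. The sources used here do not say whether they were. At the low end stood 2 genes. Eef1a2, the eEF1A of muscle and neurons, had 0.0618 ± 0.00623 CPM per kb in RNA, and Eif4e1b, an eIF4E relative known from oocytes, had 0.180 ± 0.0493. The eIF3j genes Eif3j1 and Eif3j2 had 0 counts in all 12 libraries. The share of 30-base coding stretches found nowhere else in the genome was 0.264% for Eif3j1 and 25.2% for Eif3j2. For 75-base transcript stretches, which bear on RNA, it was 13.8% (323 stretches) and 33.9% (795 stretches). Eif2s3x, with 6.75% (237 stretches), still had 236 to 492 RNA counts per library. The reason for the counts of 0 was not tested, and they do not speak for genes without RNA.

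**Figure D1:**
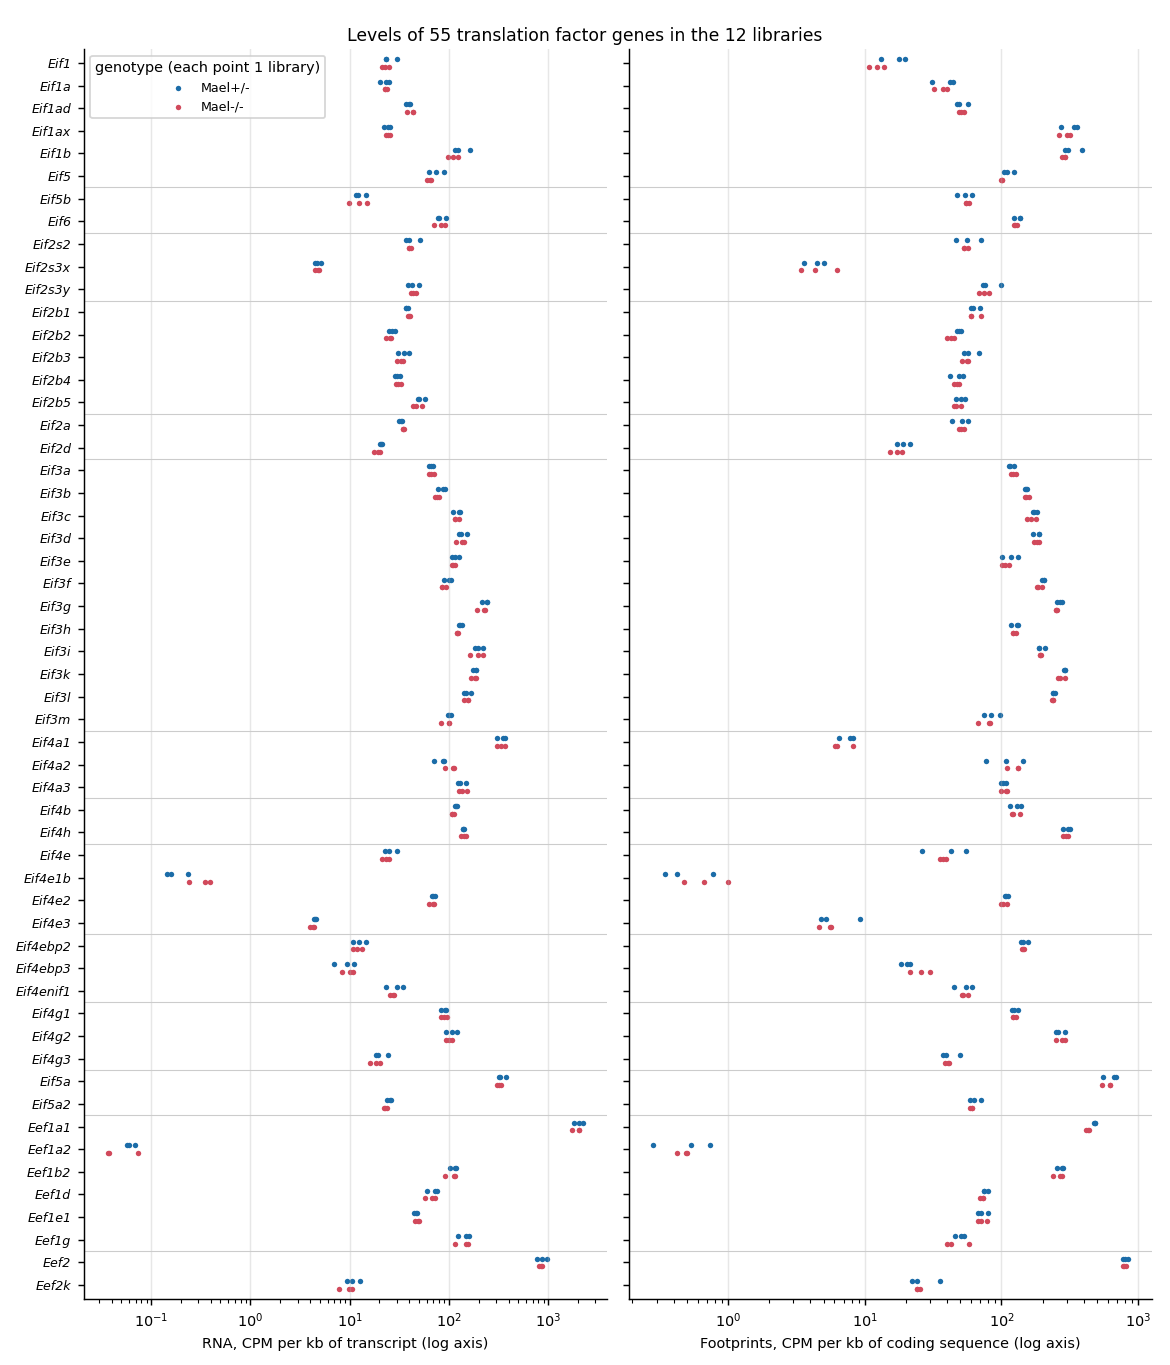
Levels of the 55 factor genes with counts, in CPM per kb of transcript for RNA (left) and per kb of coding sequence for footprints (right), on log axes, with 1 point per library and blue for Mael+/- and red for Mael-/-; thin lines separate groups of related factors. Eef1a1 leads in RNA with 2037 CPM per kb in Mael+/-, Eef2 leads in footprints with 807 on this scale of whole lengths (per unique kb Eef1a1 leads there with 4435), and blue and red points lie close together for nearly every gene.

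Between genotypes, no factor gene passed the test in RNA. Of 55 tested, 0 reached an adjusted p of 0.05 (edgeR quasi-likelihood test, Benjamini-Hochberg over 14685 genes), where 0.116% of all genes did. DESeq2 also called 0, and 1 member had an unadjusted p under 0.05 (1.82%, against 5.40% of all genes). The 95% interval of the log2 change lay within 0.5 of 0 for 49 of the 55 genes (89.1%, against 65.0% of all genes), so changes beyond that size were outside the interval for most factors. Values below 0 made up 40 of the 55 (72.7%, against 50.4% of all genes), with a median of -0.06. Leaving out 1 library gave 33 to 43 of 55 and a median between -0.08 and -0.04. The value nearest to 0 came without the first *Mael*-/- library, and without the first *Mael*+/- library 35 were below 0.

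Eif4a2, the second eIF4A helicase gene, came closest to a call in RNA. Its level was 211, 166 and 209 CPM in the *Mael*+/- libraries and 264, 266 and 217 CPM in the *Mael*-/- libraries. The groups did not overlap, although the lowest *Mael*-/- value lay just above the highest control. The log2 change was 0.35 ± 0.12 (SE), with an edgeR adjusted p of 0.845 (unadjusted 0.0155). Its footprints overlapped: 176, 95.2 and 132 CPM in *Mael*+/- and 161, 161 and 135 CPM in *Mael*-/-. Eif4a1, which encodes the main eIF4A, had a log2 change of -0.02 ± 0.10 in RNA. Next came Eif4e1b, at the edge of detection, with 0.433, 0.293 and 0.264 CPM in *Mael*+/- and 0.728, 0.644 and 0.438 CPM in *Mael*-/- (log2 change 0.83 ± 0.40, edgeR adjusted p 0.938). Eif5, the GTPase activator of eIF2, had 352, 253 and 291 CPM in *Mael*+/- against 263, 255.0 and 241 CPM in *Mael*-/-, and only the second control lay inside the *Mael*-/- range. Its change of -0.24 ± 0.12 became -0.10 without the first *Mael*+/- extract, the extract with the high meiotic markers. Genotypes did not overlap for 4 factor genes that were higher in *Mael*-/- RNA (Eif2a, Eif2b1, Eif4a2 and Eif4e1b, 7.27%) and for 3 that were lower (Eif2d, Eif3h and Eif4b, 5.45%), where 5.23% and 5.03% of all genes did the same.

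In footprints the count of called factor genes was again 0, of 53 tested (0.0593% of 13500 genes were called). At an unadjusted p under 0.05 it was also 0, against 4.33% of all genes. DESeq2 called 0 as well. Eef1a2 and Eif4e1b had too few footprints to be tested. Of the 53 log2 changes, 43 were below 0 (81.1%, against 52.4% of all genes) with a median of -0.07, and without the first *Mael*+/- library 38 were, with a median of -0.04. Leaving out the third *Mael*-/- library gave 41 and -0.05. The interval lay within 0.5 of 0 for 46 genes (86.8%, against 64% of all genes) and within 1 for all 53.

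The smallest p in footprints belonged to Eef1a1. It had 669, 675 and 665 CPM in *Mael*+/- and 580, 592 and 604 CPM in *Mael*-/-, groups that did not overlap and a log2 change of -0.18 ± 0.09 (edgeR adjusted p 0.999). Eif2b2, the beta subunit of the exchange factor that recharges eIF2, had 51.9, 53.5 and 49.7 CPM against 45.3, 47.5 and 42.5 CPM, again without overlap, and a change of -0.20 ± 0.10. Eif1, which guards the choice of the start codon, had 6.79, 6.08 and 4.49 CPM against 4.69, 4.19 and 3.68 CPM, with a change of -0.45 ± 0.23 that rested on 46 to 64 counts per *Mael*+/- library. The genotypes did not overlap for 4 factor genes lower in *Mael*-/- (Eef1a1, Eef1d, Eif2b2 and Eif5, 7.55%), where 4.84% of all genes did so, and for 0 higher (4.24% of all genes).

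Translation efficiency, the footprints of a gene relative to its RNA, was compared between genotypes in a model over both assays. No factor gene passed, of 53 tested, and of all genes 0% did (0 of 13448). The count was also 0 with DESeq2 and with RNA and footprints of the same extract paired. At an unadjusted p under 0.05 it was 0 as well, but only 0.394% of all genes reached this in the main model. That model left the extracts unpaired, and the share is far below what the threshold itself would give without any change. A count of 0 among 53 at that threshold therefore says little about the factor genes. The median change was -0.01 and the values ran from -0.29 to 0.27. The side of 0 on which the median lay depended on single extracts. It was -0.06 without the second *Mael*+/- extract (38 of 53 below 0) and 0.02 without the third *Mael*-/- extract (22 below 0). Without the first *Mael*+/- extract, the one with the high meiotic markers, it was 0.01 (24 below 0). Without the third *Mael*+/- extract 19 were below 0. Each interval lay within 1 of 0, and 40 lay within 0.5 (75.5%, against 53.0% of all genes). With the extracts paired, 49 did. The smallest p belonged to Eif3b, a core subunit of eIF3, whose RNA was 259, 274 and 233 CPM in *Mael*+/- and 236, 226 and 216 CPM in *Mael*-/-, while its footprints were 365, 374 and 357 CPM against 356, 367 and 381 CPM. Its translation efficiency had a log2 change of 0.19 ± 0.11 (unadjusted p 0.119, edgeR adjusted p 1). For Eif1 the value was -0.29 ± 0.24 and for Eif1ax, a gene for eIF1A, -0.15 ± 0.15. Without the second *Mael*+/- extract Eif1 had -0.18, and Eif1ax had -0.04 without the second and -0.24 without the first *Mael*-/- extract.

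**Figure D2:**
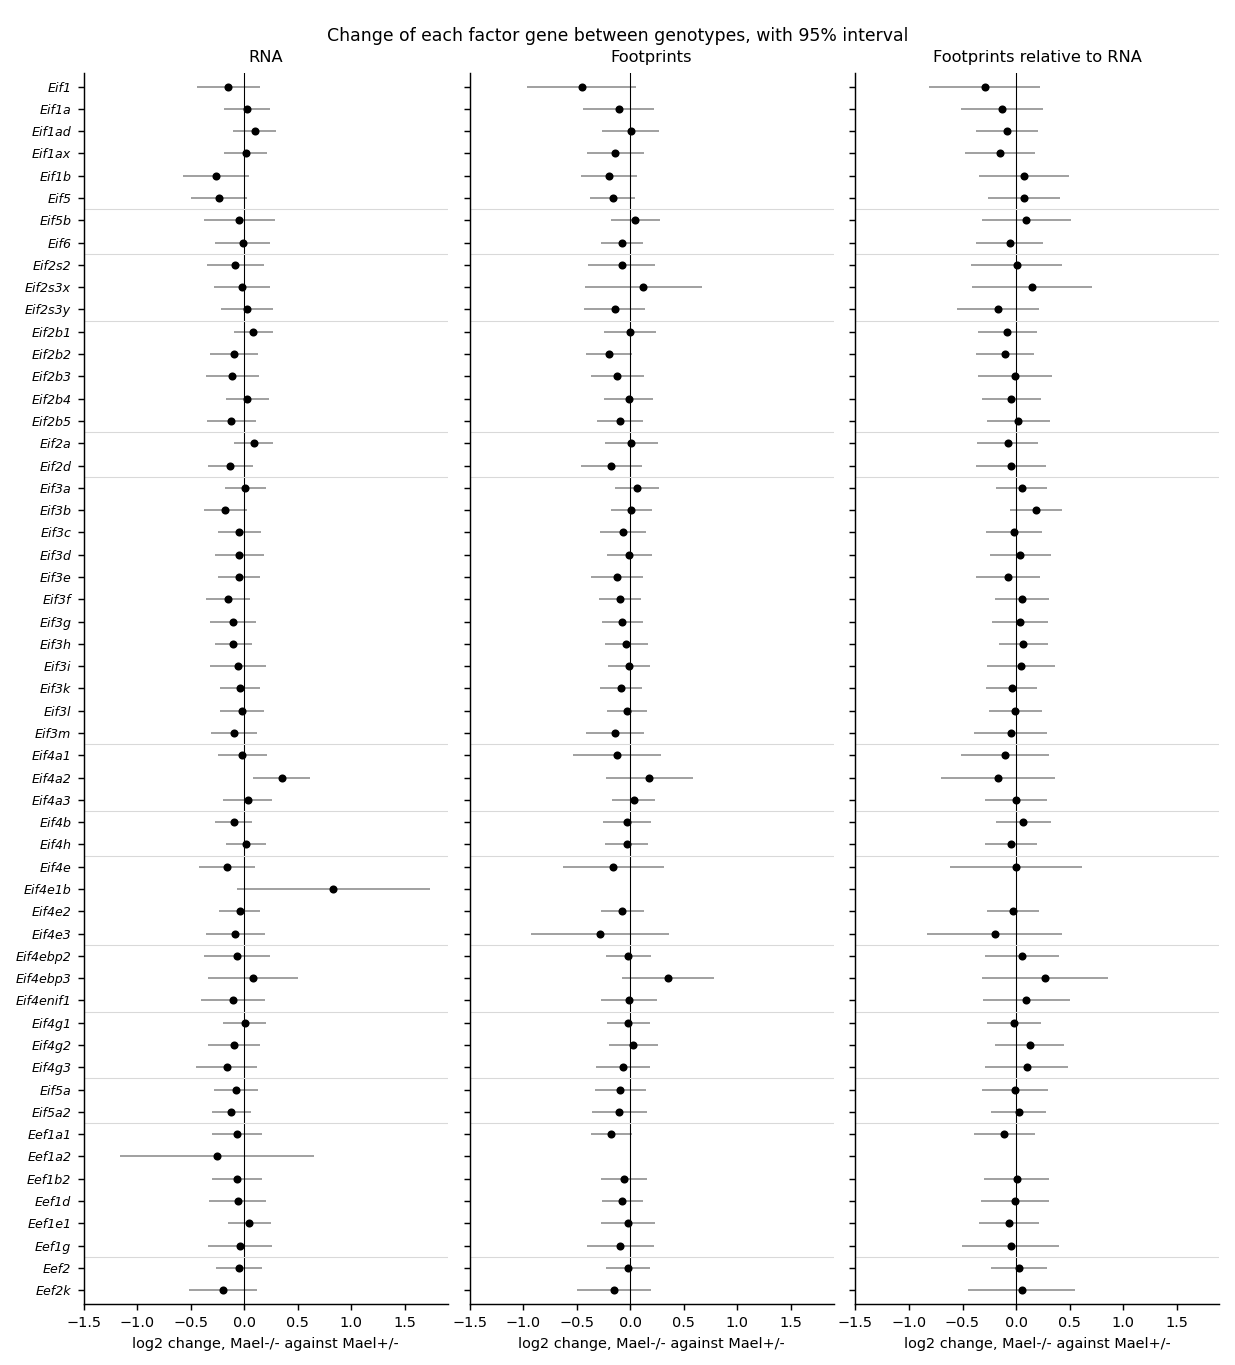
Log2 change between Mael-/- and Mael+/- for each factor gene in RNA (left), in footprints (centre) and in footprints relative to RNA (right); points are edgeR estimates, lines their 95% intervals, and thin grey lines separate groups of related factors. Eif4a2 in RNA, at 0.35, is the only interval that leaves 0 out, and Eef1a2 and Eif4e1b have no value in footprints.

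By role, the group medians lay near 0, the lowest being -0.13 for eEF2 in RNA and -0.16 for the cap-binding genes in footprints. The highest was 0.03 in each assay, for eIF4A. Single genes lay further out. Among the 6 scanning genes, with a footprint median of -0.15, Eif1 had the lowest footprint change (-0.45). Eif1b had the lowest RNA change of all factor genes (-0.27 ± 0.14). In RNA, Eif4e1b of the cap-binding group reached 0.83 and Eif4a2 of the eIF4A group 0.35. The 12 eIF3 subunits with counts, which hold the small subunit to the mRNA, had RNA changes between -0.18 (Eif3b) and 0.01 (Eif3a), with a median of -0.06, and footprint changes between -0.14 (Eif3m) and 0.06 (Eif3a). The 5 genes of the exchange factor eIF2B had RNA changes of -0.12 to 0.08, and their footprint changes were -0.20 to 0.00. The scaffold genes Eif4g1, Eif4g2 and Eif4g3 had RNA changes of -0.16 to 0.00 and footprint changes of -0.07 to 0.03. The brakes on eIF4E showed the highest single footprint value: Eif4ebp3, with 6.15 ± 0.494 CPM in *Mael*+/-, had a change of 0.35 ± 0.20 (edgeR adjusted p 0.999). The 6 eEF1 genes ran from -0.26 (Eef1a2, near detection) to 0.05 in RNA, and Eef2 and its kinase Eef2k had RNA changes of -0.05 ± 0.10 and -0.20 ± 0.14.

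Within a genotype, footprints per coding length were set against RNA per transcript length, so that 0 is the mean gene. This ratio differed from 0 for 38 of 53 factor genes in *Mael*+/- testes: 9 were higher (17%, where 28.1% of all genes were) and 29 lower (54.7%, where 32% of all genes were). In *Mael*-/- testes 10 were higher (28.1% of all genes) and 30 lower (32.7% of all genes). The median was -0.25 in *Mael*+/- and -0.28 in *Mael*-/-, against -0.06 and -0.08 for all genes. The split changed with the scale. Without lengths, 18 factor genes were higher in *Mael*+/- testes (34.0%, where 30.3% of all genes were) and 21 lower (39.6%, where 28.2% were). The direction turned for 21 of the 53 genes, and 9 of these were called on both scales: Eif5a2 and Eif4h went from higher to lower, and Eif2a, Eif2b4, Eif3c, Eif3d, Eif3k, Eif3l and Eif4g1 from lower to higher. With the median gene as 0 in place of the mean gene, 10 were higher (30.7% of all genes) and 21 lower (28.4% of all genes).

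Among the genes tested, the highest ratios per whole length belonged to Eif1ax, Eif4ebp2 and Eif5b. Eef1a2, with 4 to 9 footprint counts per library and not tested, had values of 1.41 to 2.86 in the 6 extracts. For Eif1ax, on the X chromosome, the log2 ratio was 2.89, 2.75 and 2.90 in the *Mael*+/- extracts and 2.87, 2.47 and 2.75 in *Mael*-/-. The fitted value in *Mael*+/- was 2.85 ± 0.11 (edgeR adjusted p 9.5e-11), a 7.22-fold excess over the mean gene. It rested on a long annotated transcript, and without lengths the value was 0.38 in *Mael*+/- and 0.23 in *Mael*-/- (edgeR adjusted p 0.082). Eif4ebp2, an eIF4E-binding protein that keeps eIF4E from eIF4G, had 2.35, 2.75 and 2.83 in *Mael*+/- and 2.55, 2.70 and 2.81 in *Mael*-/-, fitted at 2.64 ± 0.12 in *Mael*+/- and still 1.35 without lengths. Eif5b, the GTPase of subunit joining, had 1.15, 1.14 and 1.27 against 1.05, 1.27 and 1.58, with 1.18 ± 0.14 fitted and 1.10 without lengths. All 6 extracts were above 0 for these 3 genes. Eif5a2 (0.46 ± 0.09) and Eif4g2, an eIF4G relative that cannot bind eIF4E (0.43 ± 0.11), were also called higher, but without lengths they stood at -1.97 and -0.07.

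The lowest ratios belonged to Eif4a1 (-6.39 ± 0.15), Eef1a1 (-2.97 ± 0.10), Eef1g, an eEF1B subunit (-2.42 ± 0.16), Eif1 (-1.5 ± 0.17) and Eif4a3, the helicase of the exon junction complex (-1.28 ± 0.10) (edgeR adjusted p 5.4e-08). Eif4a1 had 574, 693 and 654 CPM in *Mael*+/- RNA but only 9.54, 7.89 and 10.05 CPM in *Mael*+/- footprints, and 577, 634 and 685 CPM against 10.1, 7.68 and 7.36 CPM in *Mael*-/-. The 6 extracts of Eif4a1 all lay between -6.81 and -6.11, so the value repeated from extract to extract and in both genotypes.

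Eif4a1, Eef1a1, Eef1g and Eif1 also had few unique coding stretches. For each gene the share of 30-base coding stretches that occur nowhere else in the genome was counted, since reads from the other stretches fit several places, and whether such reads were counted is not given in the sources used here. The share was 0% for Eif1, 0.755% for Eif4a1 (9 stretches), 4.75% for Eef1g, 4.89% for Eif2s3x, 11.1% for Eef1a1, 14.1% for Eif4e and 15.5% for Eif2s2. Of the factor genes tested, 10 of 53 had under 50% (18.9%, against 4.75% of all genes), and 32 had at least 90% (60.4%, against 87.8% of all genes). Unspliced copies of at least 50% of the coding sequence at 90% identity or more lay elsewhere in the genome for 22 of the 57 factor genes, with 24 copies of Eif1, 13 of Eef1a1, 5 of Eef1g and 4 of Eif4a1. The ratio followed this share. In *Mael*+/- testes the median log2 ratio of the 10 genes under 50% was -1.21, with 9 called lower and 0 higher, and the 636 genes of the whole table under 50% had a median of -1.17, with 76.6% called lower. The 32 factor genes with at least 90% had a median of -0.10, with 13 called lower and 8 higher, where 28.7% and 29.4% of such genes were. Across the 53 factor genes, Spearman's rho between ratio and share was 0.53, a description over genes that share the same libraries.

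With unique positions in place of whole lengths, the low ratios shrank. Of the 52 genes that could be fitted, 9 were higher in *Mael*+/- testes (26.8% of all genes) and 26 lower (35.1% of all genes), and in *Mael*-/- testes 10 were higher (26.7% of all genes) and 29 lower (35.4% of all genes). Eif4a1 moved from -6.39 to -1.41, a value that rests on the 9 unique stretches, and Eef1a1 from -2.97 to -1.03. Eef1g moved from -2.42 to -0.02 and was no longer called (edgeR adjusted p 0.917). Eif4a3 moved to -0.58, and Eif1 could not be fitted. Eif2s2, the beta subunit of eIF2, turned from -0.45 to 1.56 and Eif4e from -0.21 to 2.34, so the direction of their ratios depends on how shared stretches are treated. Spearman's rho over the 52 genes left was 0.06. This scale adjusts each ratio by the number of unique coding stretches, so the shrinking of low ratios and the fall of rho are partly built into it. Eif1ax, Eif4ebp2 and Eif5b hardly moved (2.93, 2.58 and 1.12). Among the genes with at least 90% unique stretches, the lowest ratios were those of Eif2d, which can bring tRNA without eIF2 (-1.02 ± 0.11), Eif2b5, the catalytic subunit of eIF2B (-0.94 ± 0.10), and Eif3i (-0.94 ± 0.11). They were -1.12, -1.07 and -0.98 with unique positions, and -0.21, -0.18 and -0.11 without lengths, where they were not called.

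**Figure D3:**
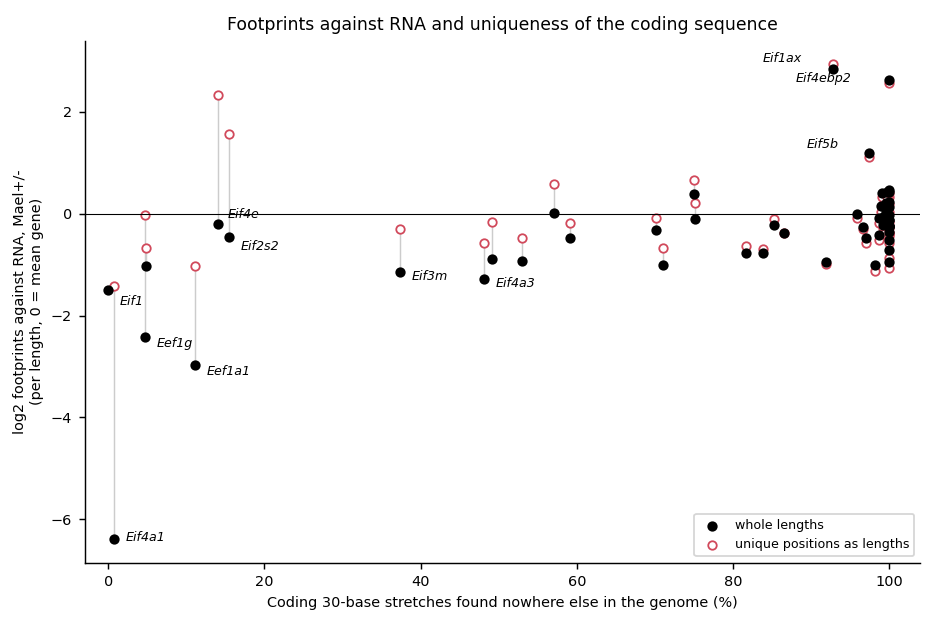
Log2 footprints against RNA in Mael+/- testes (y axis, per length, 0 is the mean gene) against the percentage of coding 30-base stretches found nowhere else in the genome (x axis) for 53 factor genes; black points use whole lengths, open red points use unique positions as lengths, and grey lines join the same gene. The lowest black points, Eif4a1 at -6.39 and Eef1a1 at -2.97, lie at the left edge, and their red points lie at -1.41 and -1.03.

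The pairs of related genes were read with these shares in view. Eif4a1 made up 80.4 ± 3.34% (SD, n = 3) of the RNA level per kb of the eIF4A pair in *Mael*+/- testes and 6.65 ± 1.32% of the footprint level, with Eif4a2 as the rest. In *Mael*-/- testes the shares were 76.1 ± 3.41% and 5.23 ± 0.667%. The opposite order in the assays goes with 0.755% unique coding stretches for Eif4a1 and 59.2% for Eif4a2. Eif2s3y, on the Y chromosome, held 89.9 ± 1.49% of the RNA and 94.8 ± 1.48% of the footprints of the eIF2 gamma pair in *Mael*+/-, and 90.3 ± 0.755% and 94.2 ± 1.37% in *Mael*-/-. Its X-linked partner had 4.89% unique coding stretches against 99.6% for Eif2s3y, so the order of this pair in the testis is not settled by these counts. Eif1b held 83.8 ± 0.700% of the RNA of its pair, with 99.0% unique coding stretches against 0% for Eif1. Of the 75-base transcript stretches, which bear on RNA, 57.1% were unique for Eif1 and 100% for Eif1b. Per unique kb Eif1b also had the higher RNA level in *Mael*+/-, 145 ± 27.5 CPM against 47.6 ± 7.43. In footprints, Eif1 has no value on that scale.

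The eIF4G scaffold genes Eif4g1, Eif4g2 and Eif4g3 had at least 98.7% unique coding stretches. Their RNA shares in *Mael*+/- testes were 41.5 ± 4.78%, 49.1 ± 3.88% and 9.43 ± 1.01%, and their footprint shares 28.8 ± 2.59%, 61.6 ± 1.65% and 9.63 ± 0.969%. These shares depend on lengths: from CPM without lengths, Eif4g2 held 57.4 ± 3.71% of the RNA and 47.5 ± 1.73% of the footprints, so the order of the assays turned, and Eif4g1 held 34.0 ± 4.39% and 39.2 ± 3.17%. Between the eIF4E inhibitors, Eif4ebp2 held 58.3 ± 2.37% of the RNA and 87.9 ± 0.330% of the footprints of the pair with Eif4ebp3, both fully unique. Eif5a held 93.1 ± 0.518% of the RNA and 90.8 ± 0.948% of the footprints against Eif5a2, its narrowly expressed partner, while without lengths the shares were 79.5 ± 1.31% and 90.8 ± 0.943%, the opposite order of the assays. Among the cap-binding genes Eif4e2, a translational repressor, held 69.6 ± 3.44% of the RNA and Eif4e 25.8 ± 3.41%. Eif4e had only 14.1% unique coding stretches, but 85.7% of its 75-base transcript stretches, which bear on RNA, were unique. Without lengths Eif4e2 and Eif4e held 47.5 ± 4.26% and 48.2 ± 4.41%. For eIF1A, Eif1a held 48.6 ± 1.5% of the RNA and 10.8 ± 0.671% of the footprints of the pair with Eif1ax. The shares of Eif1a depend on the transcript chosen, and its log2 ratio moved from -0.11 to 0.56 with the RefSeq Select transcript.

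**Figure D4:**
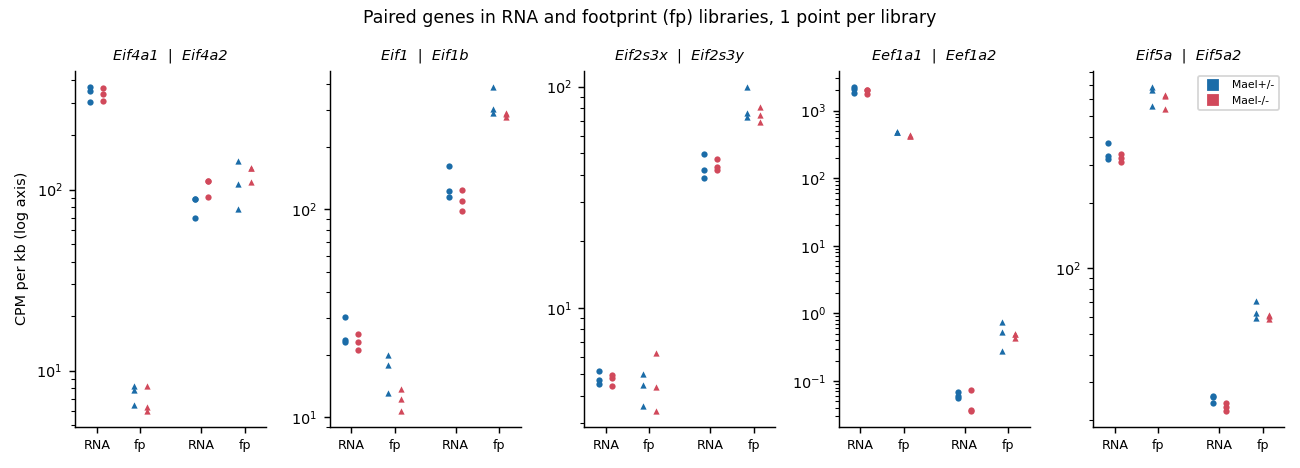
CPM per kb (log axes, each panel with its own range) of 5 pairs of related genes, the gene named left on the left of a panel and its partner on the right, with circles for RNA, triangles for footprints (fp), 1 point per library, blue for Mael+/- and red for Mael-/-. Eif4a1 lies at 341 CPM per kb in Mael+/- RNA and at 7.50 in footprints, while Eif4a2 lies at 82.3 and 110.

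In eIF3 and eIF2B, footprint levels were more even across subunits than RNA levels, for eIF3 on 1 of 2 length scales. Among the 12 eIF3 subunits with counts, the coefficient of variation of the level per unique kb was 34.5% in RNA and 22.9% in footprints of *Mael*+/- testes, and 34.6% and 21.0% in *Mael*-/-. On the scale of whole lengths the values were 36.5% and 35.6% in *Mael*+/-, so for eIF3 the assays differed only on the unique scale. Eif3a, the largest subunit, was lowest in both assays on that scale, 72.9 ± 3.42 CPM per unique kb in RNA and 119 ± 5.76 in footprints, and Eif3g (251) and Eif3k (306) were highest in RNA and footprints. For the 5 subunits of eIF2B, whose coding stretches are all unique, the coefficient was 26.6% in RNA and 13.3% in footprints per whole kb in *Mael*+/-, and 24.9% and 16.3% in *Mael*-/-. Eif2b5 had the highest RNA of the 5, 52.2 ± 4.04 CPM per kb, but 50.5 ± 3.88 in footprints, close to Eif2b4 (47.7 ± 4.98) and Eif2b2 (48.9 ± 1.85). These are descriptions over 12 and 5 genes and were not tested. Of the eEF1B genes, Eef1b2 and Eef1d lay further apart per kb in footprints than in RNA of *Mael*+/- testes. Eef1b2 had 272 ± 13.7 CPM per kb in footprints and Eef1d 75.9 ± 2.89, against 112 ± 7.68 and 69.5 ± 8.65 in RNA. The wide gap rested on the lengths. Without lengths they had 184 ± 9.27 and 151 ± 5.74 CPM in footprints, against 217 ± 14.9 and 198 ± 24.7 in RNA.

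**Figure D5:**
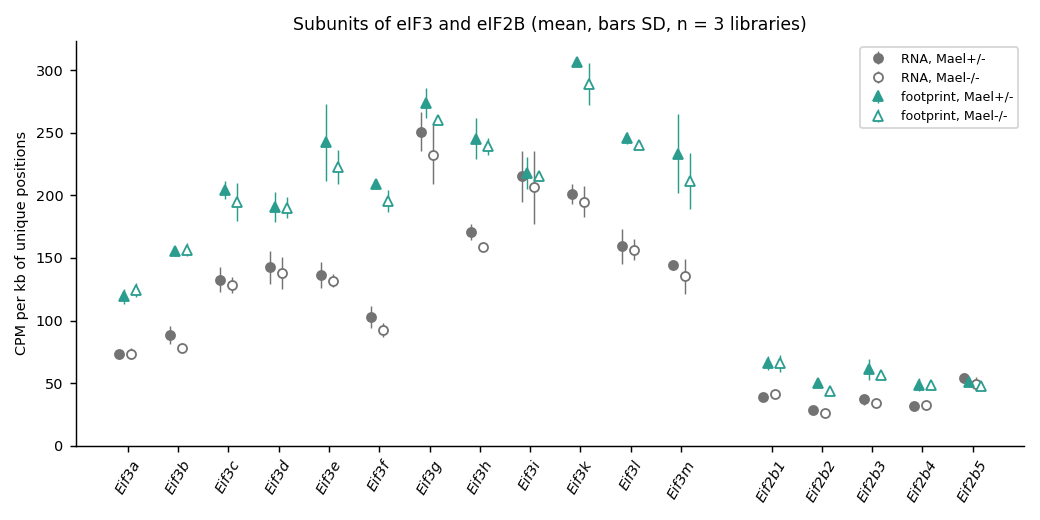
Levels of the 12 eIF3 subunits and the 5 eIF2B subunits in CPM per kb of unique positions; grey circles are RNA, green triangles footprints, filled for Mael+/- and open for Mael-/-, as the mean of 3 libraries with SD bars. Eif3a is lowest among the eIF3 subunits in both assays, and Eif2b5 leads eIF2B in RNA but not in footprints.

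Many elongation factor mRNAs and some of initiation factors are known to begin with a run of pyrimidines, the terminal oligopyrimidine (TOP) tract, through which mTOR signalling controls their translation. A list of 11 known TOP mRNAs among the factor genes (Eef1a1, Eef1b2, Eef1d, Eef1g, Eef2, Eif2s3x, Eif3a, Eif3e, Eif3f, Eif3h and Eif4b) had median log2 changes between genotypes of -0.06 for both RNA and footprints, and the median for translation efficiency was 0.03, with 0 called in each. Their ratio of footprints to RNA in *Mael*+/- testes had a median of -0.88, with 8 called lower and 1 higher (32% and 28.1% of all genes). The 42 other factor genes tested had a median of -0.23, with 21 called lower and 8 higher, and all genes had a median of -0.06. The medians of the list and of the other factor genes were -0.47 and -0.18 with unique positions, and -0.26 and -0.14 without lengths. Eef1b2 was the gene called higher (0.38 ± 0.10), but without lengths its value was -0.11 and was not called. Eef2 (-1.01 ± 0.09) and Eif4b (-0.78 ± 0.09), which were called lower, were still called lower with unique positions (-0.68 and -0.70) and without lengths (-0.26 and -0.83).

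Of the 11 listed mRNAs, 7 had an entry in the promoter table. Eef1b2, Eef2, Eif3a and Eif4b had no run of 8 or more C and T near the annotated start, their longest being 2 to 7 bases, and Eef1a1, Eif2s3x and Eif3f had one. These 3 and Eif2s3y, the partner of Eif2s3x, are printed to show the tract where the annotated start places it, with 10 bases before the start and 20 from it on, on the strand of the gene and with the run of C and T in capitals (RefSeq, GRCm38.p6).
Eif3f, chr7:108934405-108934434, plus strand: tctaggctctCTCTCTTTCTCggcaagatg
Eif2s3x, chrX:94212632-94212661, minus strand: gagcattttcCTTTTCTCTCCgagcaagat
Eif2s3y, chrY:1010585-1010614, plus strand: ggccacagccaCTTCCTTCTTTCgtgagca
Eef1a1, chr9:78481705-78481734, minus strand: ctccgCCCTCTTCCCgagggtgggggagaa
Eif3f and Eif2s3x had a tract of at least 5 bases that began with C exactly at the annotated start, as did 3.01% of the 27025 genes in the promoter table. A tract of at least 8 bases within 10 bases of the start was found for 7 of 44 factor genes (15.9%, against 6.72% of all genes): these 4 and Eif3l, Eif4enif1 and Eif2b2. In Eif3f and Eif2s3x the run of C and T reached a few bases further upstream, and the capitals begin at the start. The other 13 factor genes had no entry in the table, Eef1d, Eef1g, Eif3e and Eif3h of the list above among them. Both genes of the eIF2 gamma pair carried such a tract. Their footprint changes between genotypes were 0.12 ± 0.25 for Eif2s3x and -0.15 ± 0.13 for Eif2s3y.

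Other genes of translation were counted beside the factor genes. A list of 42 genes (the eIF2 alpha gene and its kinases, mTOR and its targets, release, recycling and mitochondrial translation factors) had 0 called by edgeR in each comparison of the genotypes. At an unadjusted p under 0.05 there were 4 (RNA), 1 (footprints) and 0 (translation efficiency) genes, where 5.40%, 4.33% and 0.394% of all genes were. Their median changes were 0.00, 0.02 and 0.03. In footprints against RNA in *Mael*+/- testes, 15 of them were called higher and 15 lower, where 28.1% and 32% of all genes were.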

How the data were processed

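RNA and ribosome footprints of 12 testis libraries were analysed. The deposited values are raw read counts per gene, without normalization. Per the study's methods, the authors removed ribosomal reads from the footprint libraries with Bowtie 1.2.2, aligned the remaining footprint reads and the RNA reads to mm10 with STAR 2.6.0c and counted them with featureCounts (Subread 1.6.4), over whole mRNAs for RNA and coding sequence for footprints. The setting for reads with several alignments and any removal of duplicates are not given in the sources used here. The deposited tables of the authors' DESeq2 fold changes, standard errors and p-values were not used.

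Groups came from the labels (3 libraries in each of 4). Genes were filtered with filterByExpr, scaled by TMM within assay and tested with edgeR 4.0.16 (R 4.3.3) across all genes, with an adjusted p (Benjamini-Hochberg) under 0.05 as a call. Translation efficiency was the interaction of assay and genotype, and footprints were set against RNA with RefSeq lengths (coding and longest transcript) as offsets. The code was tested on simulated data. DESeq2 1.42.0 and other settings served as alternatives. RNA and footprints of the same replicate number deviated together in *Mael*+/- (correlations of 0.627 to 0.776 over 13205 genes). In *Mael*-/- the correlations were 0.235 to 0.256, little above the highest between the genotypes (0.232), so they do not show the matching there. The study's methods took both from the same testis extracts. The labels give only replicate numbers, so RNA and footprints were matched by these, and a paired fit was run. Named were genes with the 3 smallest p-values per comparison, the 5 highest and 5 lowest called ratios, pairs of related genes, and a few more chosen after their values were seen (Eif2d, Eif2b5, Eif3i, Eif4ebp3). The genes and lists were chosen with earlier results of these data known. Sequences are from the RefSeq genome GRCm38. A run of 30 coding bases or 75 transcript bases was unique if found at no other place on either strand.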

Additional observations from a re-analysis of the deposited data

How the results depend on the processing

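The counts of called factor genes kept their side under every alternative. They were 0 in RNA, footprints and translation efficiency with DESeq2, median-of-ratios factors, no filter, a replicate block and each library or extract left out. Footprints against RNA were called for 30 to 42 genes in *Mael*-/- and 31 to 36 in *Mael*+/- with an extract left out, for 41 (*Mael*+/-) and 45 (*Mael*-/-) with the extracts paired as a replicate block, and for 35 and 39 with unique positions, an alternative chosen, like the RefSeq Select lengths and the centring on the median gene, after seeing the data. With the median gene as 0 they were 31 and 38. Without lengths the direction turned for 21 of 53 genes in *Mael*+/- and 17 in *Mael*-/-. Among the genes with the highest and lowest ratios these were Eif4g2 (-0.069) and Eif5a2 (-1.97). Eef1g lost its call with unique positions (-0.02, and -0.01 with the replicate block). Between genotypes, libraries of the same replicate number had correlations of -0.01 to 0.23. A block on replicate numbers left the counts between genotypes at 0. With 3 extracts per group, factor genes of few counts, such as Eif4e1b and Eef1a2, had intervals too wide to limit a change.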
